A study of Mus musculus with 29 samples.

Results

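The genes of collagens, laminins and the other basement membrane proteins were followed in the hypothalamus of wild-type C57BL/6 mice at 9 ages by RNA sequencing. Members were taken by name: every gene symbol made of Col, a number, a and a number, together with the genes of the laminin alpha, beta and gamma chains, the nidogen genes Nid1 and Nid2, the perlecan gene Hspg2 and the agrin gene Agrn. This gave 59 genes out of 24499 symbols, and all 59 passed the filter on low counts. The groups were mice at postnatal day 5 (P5, 3 libraries), 3 weeks (3), 4 weeks (4), 5 weeks (4), 2 months (3), 6 months (3), 12 months (3), 18 months (3) and 24 months (2). Every group was labelled WT and male, with no treatment named, and mice were housed singly under 12 h of light. The libraries used held 24661631 to 39783779 gene counts. Levels are CPM, gene counts scaled to library sizes corrected by TMM. Another 24-month library was left out because it held counts for 1385 genes alone.

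A basement membrane is a thin sheet of matrix that lies under epithelia and endothelia and around muscle and other cells. Laminin trimers, made of 1 alpha, 1 beta and 1 gamma chain, polymerise at the cell surface, collagen IV trimers form a second network, and nidogens and heparan sulfate proteoglycans such as perlecan and agrin tie the networks together. In the brain this sheet surrounds the vessels, where endothelium, pericytes and astrocyte endfeet meet, and it underlies the pia, while the fibril-forming collagens I and III are made mainly by fibroblasts of the meninges and of larger vessels. Collagens that span the cell membrane, such as that of Col25a1, are made by neurons among other cells.

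The promoters of 5 members that the results turn on are shown first. Of these, 2 overlap in the genome, and the others belong to genes called lower in the adult trend given below. None of those calls held without the 2-month libraries, in a fit of fewer libraries. Windows run from 250 bases before to 50 bases after a gene's start and come from RefSeq (GRCm38.p6), and 43 of the 59 members had at least 1 such window. Col4a1 and Col4a2, the genes of the main collagen IV chains, are arranged head to head on chromosome 8, and their annotated exons overlap by 22 bases. Capitals in these windows mark the 78 bases that both hold, chr8:11312777-11312854, read on opposite strands.
Col4a1, chr8:11312777-11313076, minus strand: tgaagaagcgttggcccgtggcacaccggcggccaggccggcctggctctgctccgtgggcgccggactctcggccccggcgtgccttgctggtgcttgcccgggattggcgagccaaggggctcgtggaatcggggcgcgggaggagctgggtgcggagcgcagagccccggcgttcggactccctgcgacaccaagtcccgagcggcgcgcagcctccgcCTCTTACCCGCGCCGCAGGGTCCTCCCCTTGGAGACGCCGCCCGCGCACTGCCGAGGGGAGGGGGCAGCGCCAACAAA
Col4a2, chr8:11312555-11312854, plus strand: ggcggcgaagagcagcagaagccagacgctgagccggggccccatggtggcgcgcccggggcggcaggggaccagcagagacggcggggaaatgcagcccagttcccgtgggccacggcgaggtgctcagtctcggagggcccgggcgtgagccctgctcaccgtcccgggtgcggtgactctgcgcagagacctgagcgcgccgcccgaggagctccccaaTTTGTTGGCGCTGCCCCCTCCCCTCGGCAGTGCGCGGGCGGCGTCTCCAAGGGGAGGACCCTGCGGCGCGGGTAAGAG
In the windows of Nid1, Col3a1 and Col1a2 the capitals mark matches to 3 short motifs, searched on both strands. The first motif was CCAAT, which reads ATTGG on the other strand. The second motif was GGGCGG, which reads CCGCCC on the other strand. The last motif was TATAAA, which reads TTTATA on the other strand.
Nid1, chr13:13437352-13437651, plus strand: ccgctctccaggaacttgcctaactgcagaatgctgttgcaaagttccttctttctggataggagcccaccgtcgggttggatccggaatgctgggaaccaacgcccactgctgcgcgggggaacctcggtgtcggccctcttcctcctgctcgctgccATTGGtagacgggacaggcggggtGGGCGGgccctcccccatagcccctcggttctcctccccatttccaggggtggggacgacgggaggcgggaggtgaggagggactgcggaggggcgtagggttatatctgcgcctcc
Col3a1, chr1:45311288-45311587, plus strand: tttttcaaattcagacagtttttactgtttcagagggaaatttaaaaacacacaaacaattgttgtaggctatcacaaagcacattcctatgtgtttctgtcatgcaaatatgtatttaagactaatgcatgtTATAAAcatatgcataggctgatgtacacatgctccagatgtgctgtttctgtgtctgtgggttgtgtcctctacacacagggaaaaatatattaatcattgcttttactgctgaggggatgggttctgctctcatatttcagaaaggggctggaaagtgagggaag
Col1a2, chr6:4505368-4505667, plus strand: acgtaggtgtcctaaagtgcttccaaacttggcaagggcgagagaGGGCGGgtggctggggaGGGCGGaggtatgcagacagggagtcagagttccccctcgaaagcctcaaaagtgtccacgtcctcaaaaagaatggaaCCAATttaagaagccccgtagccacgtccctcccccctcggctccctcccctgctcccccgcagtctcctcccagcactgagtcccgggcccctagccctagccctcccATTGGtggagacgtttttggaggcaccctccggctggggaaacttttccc
A CCAAT match was found in 15 of 48 member windows and in 37.4% of the 32851 windows of all genes. GGGCGG was found in 30 of the 48, against 35.7% of all windows, and TATAAA in 5 of the 48, against 13.6%. These are matches of letters and not mapped binding sites, and some windows belong to the same gene. The other collagen IV genes are paired in the same way: 72 bases lie between the starts of Col4a4 and Col4a3 on chromosome 1, and 1309 bases between those of Col4a6 and Col4a5 on chromosome X (GENCODE M21, GRCm38).

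Some libraries stood apart. P5 replicates 1 and 2, labelled male, held 746 and 791 CPM of the inactive-X transcript Xist and no counts of Y-linked Ddx3y, whereas every other library held at most 1.19 CPM of Xist, and the comparison with P5 is given also with replicate 3 alone. Among the 59 members, 2-month replicate 11 was the lowest library of its age for 48, and 18-month replicate 14 the highest of its age for 44; without the second of these, the same number of members, 4 lower and 0 higher, was called in the adult trend. The summed level of 20 hypothalamic neuron markers was 276 to 359 CPM at 2 months and 418 to 1846 CPM in the other libraries. The vasopressin gene Avp was at 11.1 to 57.0 CPM at 2 months and at 74.7 CPM or more in every other library. The choroid plexus transcript Ttr ranged from 1.17 to 4548 CPM. Of the salivary gland markers, Bpifa2 was at 34 to 47.0 CPM at 3 weeks and in 4-week replicates 1 and 2, and at or below 0.0587 CPM elsewhere. The labels say only that replicates are separate samples, so a p-value here covers no more than the variation among these libraries. In bulk tissue, fewer cells of a type and less RNA per cell cannot be told apart.

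Summed over the 59 members, expression was highest at P5. The sum was 1704 ± 104 CPM at P5, 1153 ± 53.7 CPM at 3 weeks, 942 ± 81.7 CPM at 4 weeks and 978 ± 41.7 CPM at 5 weeks, and then 916 ± 193, 973 ± 39.1, 1042 ± 108 and 1018 ± 221 CPM at 2, 6, 12 and 18 months, with 872 ± 45.9 CPM at 24 months (SD, n = 2 to 4). The P5 libraries, at 1594 to 1801 CPM, overlapped with none of the later ones. Per kilobase of exon, Agrn had the highest level of all members at each age, with 19.5 CPM per kb at 24 months and 48.6 CPM per kb at P5. Below it, the order of levels differed between the ages. At 24 months Col25a1 was at 13 CPM per kb, Col4a2 at 7.43, Col9a2 at 5.79, Col4a1 at 4.26 and Nid1 at 0.985 CPM per kb. At P5 Col25a1 was at 7.22 CPM per kb, Col4a2 at 20.0, Col9a2 at 13.3, Col4a1 at 15.5 and Nid1 at 13.1 CPM per kb. The other roles were led, on the mean level per kb over the 9 ages, by Col9a3 (6.64 CPM per kb), Lamb2 (6.32), Lamc1 (5.59), the fibrillar Col11a2 (3.51), Col6a1 (2.64), Col18a1 (2.59), Col8a2 (2.01) and Lama5 (1.56). Over the 9 ages, 48 of the 59 members differed (edgeR quasi-likelihood F-test, adjusted p under 0.05), where 76.8% of all genes tested did. The 11 without a call were Col11a2, Col24a1, Col6a1, Col10a1, Col14a1, Col13a1, Col23a1, Col15a1, Col18a1, Lamb2 and Lamb3. All 6 collagen IV chains, all 5 laminin alpha chains, all 3 laminin gamma chains and both nidogens were among those that differed, but neither Col15a1 (adjusted p = 0.791) nor Col18a1 (adjusted p = 0.274), whose collagens carry the endostatin-type fragments of vessel basement membranes.

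**Figure D1:**
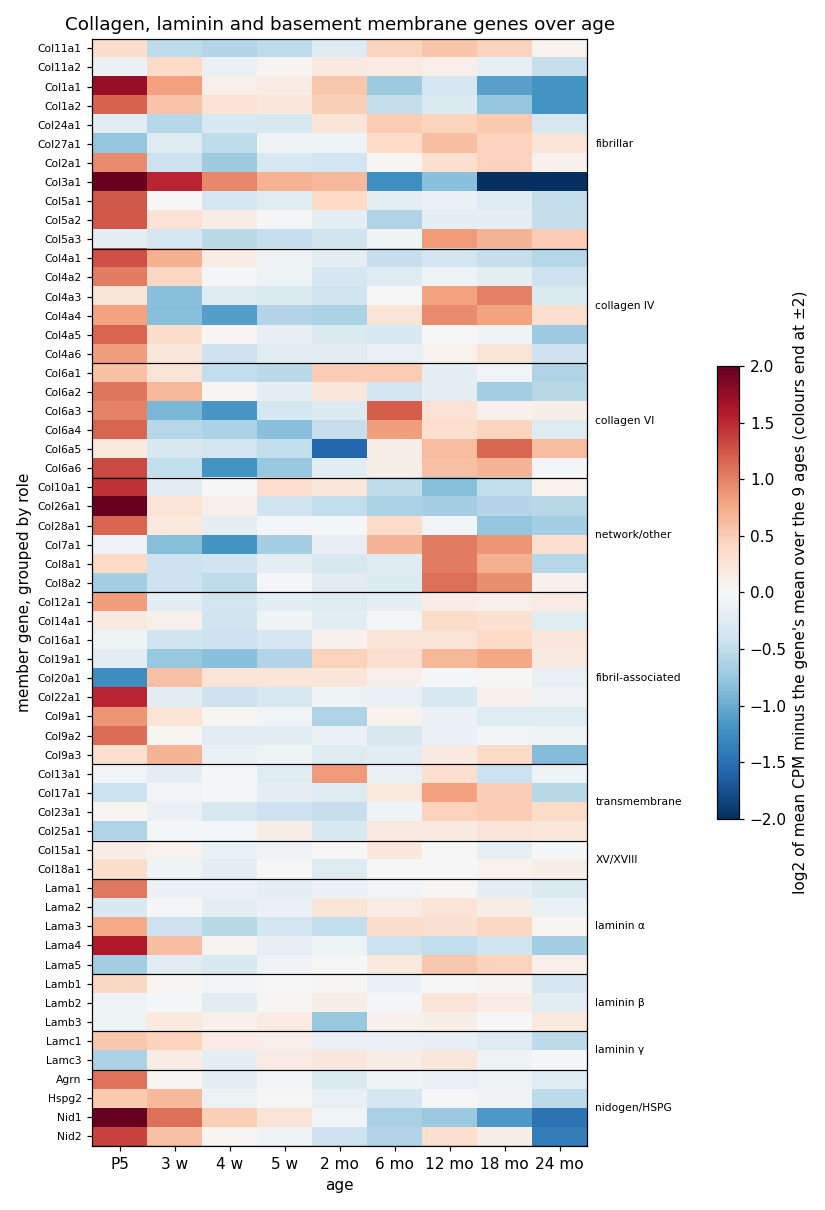
Mean level of 58 of the 59 members at 9 ages, as log2 of mean CPM minus the gene's own mean over the ages, with red above and blue below it and roles set apart by lines. Of the 58, 30 have their highest mean at P5; Lama5, Col25a1 and Col20a1 are blue there, and Col3a1 and Nid1 are blue at 24 months and red at P5.

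At 3 weeks, more matrix genes were lower than higher relative to P5. Of the 59 members, 25 fell and 5 rose (edgeR quasi-likelihood test, adjusted p under 0.05 over all genes), where 29.3% of all genes fell and 29.8% rose. The members' median log2 fold change was -0.61, beside -0.01 over all genes tested. The libraries of both ages did not overlap for 31 members that were lower at 3 weeks and 9 that were higher, against 33.6% and 33.4% of all genes. By role, 5 of 6 collagen IV chains, 4 of 11 fibrillar collagens, 3 of 6 collagen VI chains, 3 of 5 laminin alpha chains and 2 of the 4 nidogen and proteoglycan genes fell, and neither of the genes of collagens XV and XVIII passed.

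Among the genes of the core network, Nid1, whose nidogen links laminin to collagen IV, was at 38.7, 46.2 and 36.9 CPM at 3 weeks, against 86.4, 92.2 and 93.4 CPM at P5. The lowest P5 library was above the highest 3-week library, and the log2 fold change was -1.16 ± 0.17 (SE, adjusted p = 2.0e-06). Nid2 was at 8.75, 9.72 and 7.62 CPM at 3 weeks and at 11.5, 18.6 and 14.2 CPM at P5, without overlap, but missed the threshold (log2 fold change -0.77, adjusted p = 0.071). Col4a1 was at 75.2, 81.9 and 73.9 CPM at 3 weeks, against 112, 127 and 108 CPM at P5. Col4a2 was at 81.3, 91.0 and 88.5 CPM at 3 weeks, against 140, 130 and 128 CPM at P5. Both genes of this head-to-head pair fell, with log2 fold changes of -0.58 ± 0.17 for Col4a1 (adjusted p = 0.0045) and -0.61 ± 0.20 for Col4a2 (adjusted p = 0.012). Both calls were lost when P5 replicate 3 alone stood for P5, and the log2 fold changes of Col4a1 over all alternatives ran from -0.64 to -0.49. The minor chains Col4a3, Col4a4 and Col4a5 fell by 1.08, 1.63 and 0.82 on the log2 scale, though Col4a3 and Col4a4 averaged under 2 CPM at both ages, and Col4a3 had no call with P5 replicate 3 alone (adjusted p = 0.212).

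Agrn, whose product clusters acetylcholine receptors at the nerve-muscle synapse and is also a heparan sulfate proteoglycan of brain vessels, was at 201, 236 and 219 CPM at 3 weeks, against 481, 427 and 447 CPM at P5. The log2 fold change was -1.05 ± 0.18 (adjusted p = 3.0e-05). The perlecan gene Hspg2 was at 27.9, 34.6 and 30.6 CPM at 3 weeks and at 27.9, 32.5 and 25.6 CPM at P5, overlapping ranges with a log2 fold change of 0.11 (adjusted p = 0.669).

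Laminin chain genes moved in both directions. Lama4, the alpha chain of the endothelial laminin-411 found in all vessels, was at 10.5, 12.0 and 9.73 CPM at 3 weeks, against 20.3, 24.0 and 20.5 CPM at P5 (log2 fold change -1.0 ± 0.15, adjusted p = 3.4e-06). Lama1, the chain of early embryonic and pial basement membranes, was at 5.47, 7.30 and 5.68 CPM at 3 weeks, against 12.7, 15.2 and 13.6 CPM at P5 (log2 fold change -1.17 ± 0.20, adjusted p = 2.4e-05). Both genes were lower in every 3-week library than in any P5 library. Lama3, an alpha chain gene of epithelia, fell too, by 1.17 on the log2 scale, whereas the beta chain gene Lamb3 was at 2.49 to 6.25 CPM over both ages and had no call.

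Among the chains that rose, Lamc3 was at 8.0, 8.89 and 7.38 CPM at 3 weeks, against 3.75, 5.81 and 4.69 CPM at P5 (log2 fold change 0.76 ± 0.20, adjusted p = 0.0024). Lama2, the alpha chain of astrocytic and muscle laminin-211, was at 16.9, 15.2 and 14.9 CPM at 3 weeks, against 11.3, 14.2 and 13.1 CPM at P5. Lama5, the chain of the mature endothelial laminin-511, was at 13.5, 15.2 and 15.9 CPM at 3 weeks, against 9.53, 12.1 and 10.5 CPM at P5. Both were higher in every 3-week library, with log2 fold changes of 0.28 ± 0.12 for Lama2 (adjusted p = 0.044) and 0.47 ± 0.20 for Lama5 (adjusted p = 0.0498), but each lost its call in 8 of 12 alternatives, those without P5 replicate 1 or 3 and without 3-week replicate 1 or 2 among them, and Lama5 also without 3-week replicate 3. Of the shared partners of these chains, Lamb1 fell by 0.38 on the log2 scale (adjusted p = 0.023), a call lost without P5 replicate 2, without 3-week replicate 2 and with P5 replicate 3 alone. Lamb2 averaged 37.8 ± 4.87 CPM at 3 weeks and 36.6 ± 5.28 CPM at P5 (SD, n = 3 each), and Lamc1 averaged 61.8 ± 1.05 CPM at 3 weeks and 65.4 ± 3.97 CPM at P5, with adjusted p of 0.840 and 0.426.

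Outside the basement membrane, the largest change among the members by log2 fold change was that of Col26a1, a collagen with an EMI domain. It was at 10.2, 9.86 and 10.6 CPM at 3 weeks, against 75.3, 49.7 and 70.7 CPM at P5, a log2 fold change of -2.67 ± 0.20 (adjusted p = 4.1e-11). Col6a3, which encodes the largest chain of the microfibril-forming collagen VI, was at 3.64, 3.97 and 3.15 CPM at 3 weeks, against 12.9, 14.2 and 13.2 CPM at P5 (log2 fold change -1.91 ± 0.32, adjusted p = 1.9e-05). Its usual partners did not have a call: Col6a1 was at 4.91 to 20.6 CPM at 3 weeks and 9.13 to 23.5 CPM at P5, and Col6a2 at 8.66 to 16.8 CPM at 3 weeks and 10.4 to 24.9 CPM at P5. Col9a2, a chain of the fibril-associated collagen IX, was at 19.0, 21.2 and 17.8 CPM at 3 weeks, against 40.2, 42.0 and 41.5 CPM at P5 (log2 fold change -1.10 ± 0.14, adjusted p = 4.6e-07). Its partner Col9a3 was at 38.7, 38.8 and 40.0 CPM at 3 weeks and 32.3, 33.6 and 26.6 CPM at P5, higher in each 3-week library but without a call (adjusted p = 0.378). Of its exon bases, 6.07% overlap the gene Tcfl5 on the opposite strand, and reads of both genes cannot be told apart there.

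Of the 5 members that rose, Col20a1 rose most. It was at 7.19, 7.04 and 6.99 CPM at 3 weeks, against 1.91, 1.55 and 2.49 CPM at P5, a log2 fold change of 1.83 ± 0.21 (adjusted p = 5.2e-08). Col25a1, a membrane-bound collagen of neurons that is found in amyloid plaques, was at 150, 119 and 155 CPM at 3 weeks, against 96.3, 76.8 and 107 CPM at P5 (log2 fold change 0.60 ± 0.15, adjusted p = 0.0013). With P5 replicate 3 alone, Col20a1 passed (log2 fold change 1.5, adjusted p = 3.0e-04) and Col25a1 did not (log2 fold change 0.39, adjusted p = 0.128).

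The main fibroblast collagens had no call, and their P5 libraries were far apart. Col3a1 was at 20.5, 23.3 and 12.7 CPM at 3 weeks, against 12.5, 47.4 and 43.5 CPM at P5. Col1a1 was at 19.5, 25.3 and 13.6 CPM at 3 weeks, against 12.7, 67.4 and 31.4 CPM at P5. Col1a2 was at 32.2, 40.9 and 23.2 CPM at 3 weeks, against 16.4, 82.3 and 49.5 CPM at P5. P5 replicate 1 was the lowest P5 library for each, and adjusted p was 0.077, 0.067 and 0.192. Without that library the log2 fold changes were -1.28, -1.35 and -1.04, and each passed (adjusted p = 0.0058, 0.0045 and 0.012). Without P5 replicate 2 they were -0.58, -0.19 and -0.05, in the same order of genes, and none passed. With P5 replicate 3 alone at P5, only Col3a1 of the 3 passed (log2 fold change -1.22, adjusted p = 0.037). The summed level of 16 fibroblast markers was also lowest in P5 replicate 1, at 106 CPM, with 371 and 284 CPM in the other P5 libraries. Its part in the result was not tested. The genes Col5a1 and Col5a2 of collagen V, which nucleates collagen I fibrils, fell by 1.27 and 0.96 on the log2 scale.

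Markers of vessel cells gave the following values in the same comparison. The summed level of 12 endothelial markers was 372 to 395 CPM at 3 weeks, against 233 to 250 CPM at P5, and 7 of the 12 rose and none fell. That of 8 smooth muscle markers was 79.0 to 89.4 CPM at 3 weeks, against 36.5 to 48.1 CPM at P5, with 6 of 8 higher. Of 10 pericyte markers, 2 rose and 2 fell. Of the 16 fibroblast markers 2 rose, with sums of 162 to 363 CPM at 3 weeks and 106 to 371 CPM at P5. No marker of these 4 lists was at 0 in all libraries of an age. Of the 20 hypothalamic neuron markers 7 rose and 1 fell. They summed to 897 to 1417 CPM at 3 weeks, against 418 to 651 CPM at P5. Salivary gland markers summed to 74.9 to 98.4 CPM at 3 weeks, against 19.0 to 24.6 CPM at P5. Skeletal muscle markers summed to 12.8 to 17.6 CPM at 3 weeks, against 32.4 to 39.0 CPM at P5. Tissue content and age cannot be told apart in this comparison. The part of all these lists in the result was not tested. When P5 was represented by replicate 3 alone, its variation was taken from the other ages. With 1 P5 library, a lost call, here and above, cannot be told apart from lost power. The share of all genes called in that fit is not given. Members that lost their calls kept their direction. Their log2 fold changes were -0.49 for Col4a1, -0.57 for Col4a2, -0.99 for Col4a3 and -1.54 for Col6a4. They were -2.02 for Col10a1, -0.88 for Col11a1, -0.65 for Col28a1 and -0.33 for Lamb1. With all P5 libraries they were -0.58, -0.61, -1.08, -1.74, -1.57, -0.86, -0.96 and -0.38, in the same order. Those of Lama2, Lama5 and Col25a1 were 0.24, 0.50 and 0.39, against 0.28, 0.47 and 0.60 with all P5 libraries.

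**Figure D2:**
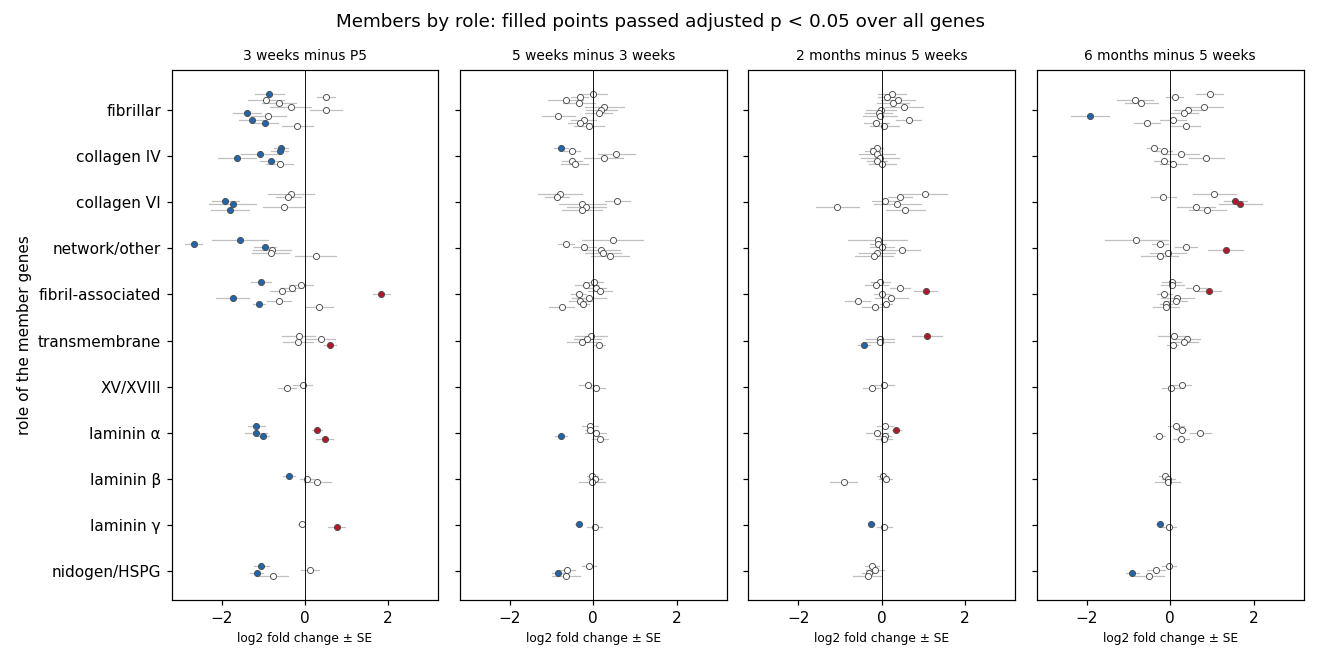
Log2 fold change of 58 of the 59 members (points, bars are 1 SE) by role in 4 comparisons, with filled points for members that passed adjusted p under 0.05. The left panel holds 24 filled points below 0 and 5 above it; the other panels hold 4, 5 and 7 filled points.

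At 5 weeks, relative to 3 weeks, the members with a call were all lower: Nid1, Lama4, Col4a1 and Lamc1. This comparison shares the 3-week libraries with the one before it. These 4 of 59 compare with 1.45% of all genes lower, and no member rose, where 0.698% of all genes did and 11 members had an unadjusted p under 0.05. For 10 members every 5-week library was lower than every 3-week library, against 8.80% of all genes, and for none was every 5-week library higher, against 7.29% of all genes. Nid1 was at 19.6, 26.2, 23.4 and 21.6 CPM at 5 weeks, against 38.7, 46.2 and 36.9 CPM at 3 weeks (log2 fold change -0.84 ± 0.16, adjusted p = 0.0030). Col4a1 was at 44.0, 42.0, 49.1 and 44.7 CPM at 5 weeks, against 75.2, 81.9 and 73.9 CPM at 3 weeks (log2 fold change -0.78 ± 0.16, adjusted p = 0.0070). Lama4 was at 5.88, 7.77, 6.04 and 5.59 CPM at 5 weeks, against 10.5, 12.0 and 9.73 CPM at 3 weeks (log2 fold change -0.77 ± 0.14, adjusted p = 0.0029). Lamc1, the common laminin gamma chain, was at 44.0, 50.3, 52.0 and 47.1 CPM at 5 weeks, against 62.0, 62.7 and 60.7 CPM at 3 weeks (log2 fold change -0.36 ± 0.08, adjusted p = 0.015), a call lost without 3-week replicate 1 or 2 or 5-week replicate 1. Col4a2 (60.8 ± 5.17 CPM at 5 weeks, 86.9 ± 5.06 CPM at 3 weeks) and Hspg2 (20.0 ± 4.90 CPM at 5 weeks, 31.0 ± 3.35 CPM at 3 weeks) were lower in each library as well, with adjusted p of 0.224 and 0.138. Of the endothelial markers 1 of 12 fell, and of the fibroblast, pericyte and smooth muscle markers none was called. Of the salivary gland markers tested, 2 of 5 fell, Dcpp1 and Bpifa2, and the list summed to 17.8 to 26.1 CPM at 5 weeks, against 74.9 to 98.4 CPM at 3 weeks. Their part in the result was not tested.

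A split of the libraries crosses the 4-week age. Rn7s2, a copy of 7SL RNA, had levels of 1.44 to 2.11 CPM in all 3-week libraries and in 4-week replicates 1 and 2, but of 21.7 to 29.6 CPM in 4-week replicates 3 and 4 and in all 5-week libraries. With that split as a term in a fit of the 3 ages, none of the 59 members was called by edgeR (6 had an unadjusted p under 0.05). In that fit 32 of all 15950 genes tested were called. Under it the log2 fold changes at 5 weeks were -0.78 for Lama4, -0.60 for Nid1, -0.39 for Lamc1 and -0.30 for Col4a1 (adjusted p = 0.196, 0.299, 0.197 and 0.303). Within the low libraries Col4a1 was at 57.2 and 64.4 CPM at 4 weeks, against 73.9 to 81.9 CPM at 3 weeks, and within the high libraries it was at 42.0 to 49.1 CPM at 5 weeks, against 45.1 and 43.4 CPM at 4 weeks. Within both sets no member was called by edgeR, with 4 members at an unadjusted p under 0.05 in the low set and 2 in the high set. Of all 16916 genes tested, 8 were called in the low set and 28 in the high set, so few genes of any kind were called. DESeq2, run on all libraries without the split, called 5 members lower at 5 weeks.

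**Figure D3:**
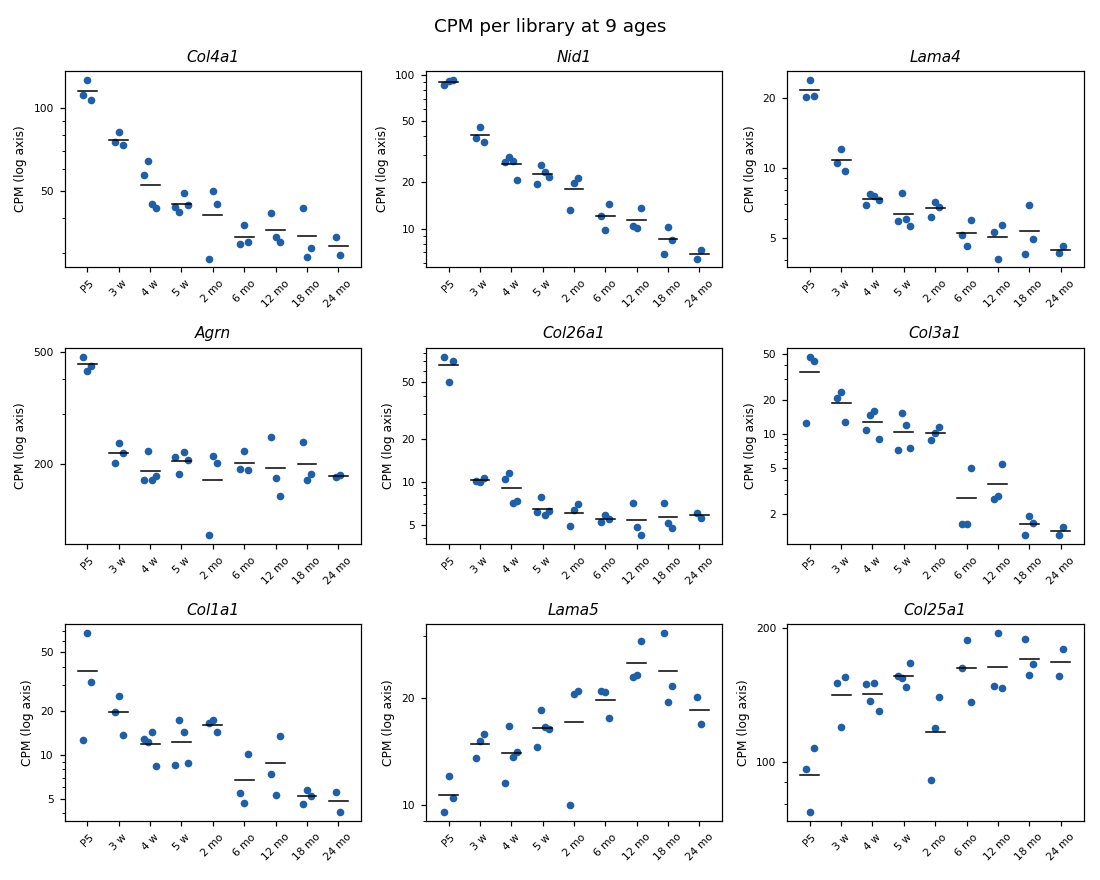
Level of 9 members in each library at 9 ages, in CPM on a log axis; points are libraries and lines are means. Nid1 has 24-month libraries at 6.39 and 7.28 CPM and P5 libraries at 86.4 to 93.4 CPM, with a lower mean at each later age, Col26a1 and Agrn are lower at 3 weeks than at P5, and Lama5 and Col25a1 are lowest at P5.

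For young adults, 2 comparisons share the 5-week libraries and are set side by side. All 5-week libraries were in the set high in Rn7s2, at 24.2 to 29.6 CPM, and every 2- and 6-month library held less of it. That split and age cannot be told apart in either comparison. At 2 months 3 members were higher than at 5 weeks, where 7.13% of all genes were, and 2 were lower, where 9.43% of all genes were. At 6 months 4 members were higher than at 5 weeks (4.58% of all genes) and 3 were lower (8.39% of all genes). The 2-month libraries were low in hypothalamic markers, of which 16 of 20 fell, so that tissue content and age cannot be told apart there. At 6 months 1 of 20 fell, and these markers summed to 572 to 832 CPM, against 847 to 1299 CPM at 5 weeks, without overlap. Tissue content and age cannot be told apart at 6 months either.

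Col19a1, a fibril-associated collagen that hippocampal and other neurons make, passed in both. It was at 5.77, 10.8 and 7.23 CPM at 2 months and at 6.88, 7.47 and 7.56 CPM at 6 months, against 3.93, 4.11, 3.72 and 3.54 CPM at 5 weeks. No adult library of these ages reached down to the 5-week range, and the log2 fold changes were 1.06 ± 0.28 at 2 months (adjusted p = 0.012) and 0.93 ± 0.28 at 6 months (adjusted p = 0.030). The call at 2 months was lost without 2-month replicate 12, and that at 6 months without any of the 6-month libraries or without 5-week replicate 1, 3 or 4. Lamc1 was lower in both: it was at 34.3, 43.9 and 43.5 CPM at 2 months and at 37.5, 39.0 and 45 CPM at 6 months, against 44.0, 50.3, 52.0 and 47.1 CPM at 5 weeks. Its log2 fold changes were -0.25 ± 0.08 at 2 months (adjusted p = 0.036) and -0.26 ± 0.08 at 6 months (adjusted p = 0.039). These calls were lost without 5-week replicate 2 or 3 in both comparisons. The call at 2 months was also lost without 2-month replicate 11, and that at 6 months without 5-week replicate 4 or 6-month replicate 32 or 33.

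At 2 months, Lama2 was at 18.4, 19.5 and 18.4 CPM, against 12.2, 17.2, 13.9 and 15.4 CPM at 5 weeks (log2 fold change 0.35 ± 0.11, adjusted p = 0.029). Col13a1, a membrane-bound collagen of the nerve-muscle synapse, was at 2.18, 2.93 and 1.82 CPM at 2 months, against 0.818, 1.46, 1.24 and 0.823 CPM at 5 weeks (log2 fold change 1.09 ± 0.36, adjusted p = 0.039). Col25a1 was at 90.7, 119 and 140 CPM at 2 months, against 156, 155, 148 and 167 CPM at 5 weeks (log2 fold change -0.42 ± 0.14, adjusted p = 0.041). The ranges of these 3 genes did not overlap, but the call of Lama2 was lost without any of the 2-month libraries or 5-week replicate 1 or 3, that of Col13a1 without 2-month replicate 11 or 12 or 5-week replicate 1, 3 or 4, and that of Col25a1 without 2-month replicate 11 or 12 or any 5-week library. At 6 months Col25a1 was at 163, 189 and 136 CPM and had no call.

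At 6 months, Nid1 was at 12.1, 9.74 and 14.5 CPM, against 19.6, 26.2, 23.4 and 21.6 CPM at 5 weeks (log2 fold change -0.91 ± 0.17, adjusted p = 9.9e-04). Col3a1, the main chain of the thin, pliable fibrils of vessel walls and meninges, was at 1.65, 1.65 and 5.07 CPM at 6 months, against 7.28, 15.3, 11.9 and 7.48 CPM at 5 weeks. The groups did not overlap, and the log2 fold change was -1.93 ± 0.45 (adjusted p = 0.0074), with a call that was lost without 6-month replicate 32. Col6a3 was at 22.6, 17.4 and 7.36 CPM at 6 months, against 3.62, 3.92, 4.69 and 9.09 CPM at 5 weeks, so that 1 library of each age overlapped (log2 fold change 1.57 ± 0.29, adjusted p = 0.0010). Col6a4 was at 5.20, 2.96 and 0.916 CPM at 6 months, against 0.662, 0.934, 0.852 and 1.32 CPM at 5 weeks, with 1 6-month library inside the 5-week range (log2 fold change 1.69 ± 0.52, adjusted p = 0.036). Col7a1, the anchoring fibril collagen, was at 2.88, 4.44 and 2.72 CPM at 6 months, against 1.56, 1.01, 1.05 and 1.68 CPM at 5 weeks (log2 fold change 1.33 ± 0.41, adjusted p = 0.035). The calls of Col6a4 and Col7a1 were lost without 6-month replicate 32 or 33 and without 5-week replicate 1, 2 or 3. Of the fibroblast markers 1 of 16 fell at 6 months, and their sum was 112 to 310 CPM, against 139 to 358 CPM at 5 weeks.

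Across adult life, from 2 to 24 months, 4 of 58 members tested fell per month of age and none rose, where 4.35% of all genes fell and 3.08% rose; 16 members had an unadjusted p under 0.05, and DESeq2 called 5 lower and 1 higher. The 4 were Nid1 and the fibroblast collagen genes Col3a1, Col1a1 and Col1a2. Nid1 was at 13.3, 19.7 and 21.5 CPM at 2 months, 12.1, 9.74 and 14.5 CPM at 6 months, 10.4, 10.1 and 13.6 CPM at 12 months, 6.88, 10.3 and 8.48 CPM at 18 months and 6.39 and 7.28 CPM at 24 months. Its slope was -0.059 ± 0.009 log2 units per month (adjusted p = 0.0046), which makes -1.30 over the 22 months. Col3a1 was at 8.81, 10.2 and 11.5 CPM at 2 months, 1.65, 1.65 and 5.07 CPM at 6 months, 2.68, 2.87 and 5.45 CPM at 12 months, 1.30, 1.94 and 1.69 CPM at 18 months and 1.32 and 1.55 CPM at 24 months. Its slope was -0.12 ± 0.02 log2 units per month (adjusted p = 0.0083), or -2.69 over the 22 months. No 2-month library of Col3a1 overlapped with a later adult one.

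Col1a1 averaged 16.1 ± 1.47 CPM at 2 months, 6.77 ± 2.95 CPM at 6 months, 8.76 ± 4.24 CPM at 12 months, 5.21 ± 0.554 CPM at 18 months and 4.83 ± 1.09 CPM at 24 months (SD, n = 3, 3, 3, 3 and 2). Col1a2 averaged 30.2 ± 2.23 CPM at 2 months, 15.5 ± 6.31 CPM at 6 months, 17.9 ± 7.58 CPM at 12 months, 12.8 ± 2.20 CPM at 18 months and 9.52 ± 0.977 CPM at 24 months. The slopes were -0.072 ± 0.017 log2 units per month for Col1a1 (adjusted p = 0.021) and -0.065 ± 0.014 for Col1a2 (adjusted p = 0.015). The call of Col1a1 was lost without any single 2-month library. From 6 to 24 months (11 libraries) edgeR called 0 members, with 7 at an unadjusted p under 0.05. In that window the slopes were -0.047 ± 0.010 log2 units per month for Nid1 (adjusted p = 0.218), -0.067 ± 0.030 for Col3a1 (adjusted p = 0.512), -0.041 ± 0.020 for Col1a2 (adjusted p = 0.558) and -0.037 ± 0.023 for Col1a1 (adjusted p = 0.685). All 4 slopes were smaller in size than over 2 to 24 months, that of Nid1 by the least. Without the libraries that held over 800 CPM of the choroid plexus transcript Ttr (7 left) edgeR also called 0, with 11 at an unadjusted p under 0.05. The share of all genes called in these smaller fits is not given. A count of 0 members therefore cannot be told apart from few calls of any kind. From 6 to 24 months Nid1 had an unadjusted p of 5.9e-04 (edgeR) and still missed the threshold. Without the 24-month libraries, Nid1 and Col3a1 kept their call and the other 2 did not (adjusted p = 0.057 for Col1a1 and 0.072 for Col1a2). These libraries stood apart in Rn7s2, at 59.0 and 60.0 CPM at 24 months and at 0 to 5.74 CPM in every other adult library. Its part in the result was not tested.

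Markers of vessel wall and fibroblast cells fell in the same trend. Of 16 fibroblast markers 8 fell, with sums of 324 to 354 CPM at 2 months, 112 to 310 CPM at 6 months, 145 to 414 CPM at 12 months, 145 to 186 CPM at 18 months and 102 and 138 CPM at 24 months. Of the 8 smooth muscle markers 6 fell, of the 10 pericyte markers 5, and of the 12 endothelial markers 4. Hypothalamic neuron markers ran the other way: of 20, 3 rose (Gal, Trh and Ghrh) and none fell. Their sums were 276 to 359 CPM at 2 months, 572 to 832 CPM at 6 months, 977 to 1846 CPM at 12 months, 937 to 1418 CPM at 18 months and 1039 and 1360 CPM at 24 months, lowest in the 2-month libraries at the start of the trend. The part of these lists in the result was not tested, and a difference in the tissue held by the 2-month libraries and age cannot be told apart. The basement membrane genes other than Nid1 had no call over adult life: the mean level of Col4a1 was 31.8 ± 3.42 CPM at 24 months and 41.2 ± 11.2 CPM at 2 months, and that of Agrn was 181 ± 2.34 CPM at 24 months and 175 ± 55.6 CPM at 2 months (SD, n = 2 and 3).

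Levels of Col3a1, Col1a1, Col1a2, Col4a1, Nid1 and Lama4 were also set against cell markers of the same library. These ratios were chosen with the values known and carry no test. Dcn is the gene of the fibroblast proteoglycan decorin, and its own level enters the ratio. Its log2 fold change was 1.004 ± 0.4789 at 3 weeks against P5, without a call (edgeR, adjusted p = 0.0775). It was 0.3802 at 5 weeks against 3 weeks. Against 5 weeks it was 0.7465 at 2 months and -0.1739 at 6 months, all without a call. A change of Col3a1 over Dcn is therefore not that of Col3a1 alone. Col3a1 over Dcn was 5.27 to 6.02 at P5. The P5 libraries were further apart in other ratios, with 4.14 to 7.49 for Col1a1 over Dcn and 2.87 to 5.18 for Col3a1 over Slc6a13, another fibroblast marker. Col3a1 over Dcn was 1.32 to 1.63 at 3 weeks, 0.567 to 1.11 at 4 weeks, 0.576 to 0.707 at 5 weeks, 0.295 to 0.434 at 2 months, 0.148 to 0.226 at 6 months, 0.119 to 0.200 at 12 months, 0.0849 to 0.141 at 18 months and 0.0758 and 0.147 at 24 months. Against the sum of the 16 fibroblast markers, Col3a1 was at 0.118 to 0.153 at P5, 0.0644 to 0.0779 at 3 weeks, 0.0249 to 0.0336 at 2 months and 0.00958 and 0.0151 at 24 months. Col1a1 over that sum was 0.111 to 0.182 at P5, 0.0336 to 0.0550 at 4 weeks, 0.0422 to 0.0533 at 2 months and 0.040 and 0.041 at 24 months. For Col1a2 the same ratio was 0.155 to 0.222 at P5, 0.113 to 0.143 at 3 weeks, 0.0915 to 0.140 at 5 weeks, 0.0867 to 0.0921 at 2 months, 0.0729 to 0.0962 at 6 months, 0.0644 to 0.0972 at 12 months, 0.0731 to 0.0820 at 18 months and 0.0741 and 0.0863 at 24 months. Its 24-month libraries were both below its 2-month range, though by little for the higher one, and its ranges at 6 and 12 months took in the whole 2-month range.

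For the vessel genes the divisor was the sum of 12 endothelial markers, whose own level enters the ratio. Its mean was 242.7 CPM at P5, 384.4 CPM at 3 weeks, 345.7 CPM at 5 weeks and 297.5 CPM at 24 months. A change of these ratios is therefore not that of the matrix gene alone. Nid1 over this sum was 0.353 to 0.401 at P5, 0.0954 to 0.124 at 3 weeks, 0.0608 to 0.0685 at 5 weeks, 0.0330 to 0.0411 at 6 months and 0.0214 and 0.0246 at 24 months. Col4a1 over it was 0.457 to 0.507 at P5, 0.191 to 0.220 at 3 weeks, 0.110 to 0.139 at 5 weeks and 0.0993 and 0.114 at 24 months. Lama4 over the same sum was 0.0828 to 0.0957 at P5, 0.0252 to 0.0324 at 3 weeks, 0.0171 to 0.0204 at 5 weeks, 0.0163 to 0.0220 at 18 months and 0.0143 and 0.0155 at 24 months. The ratio of Col4a1 overlapped between all ages from 5 weeks on, while that of Nid1 did not overlap between 5 weeks and any adult age.

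**Figure D4:**
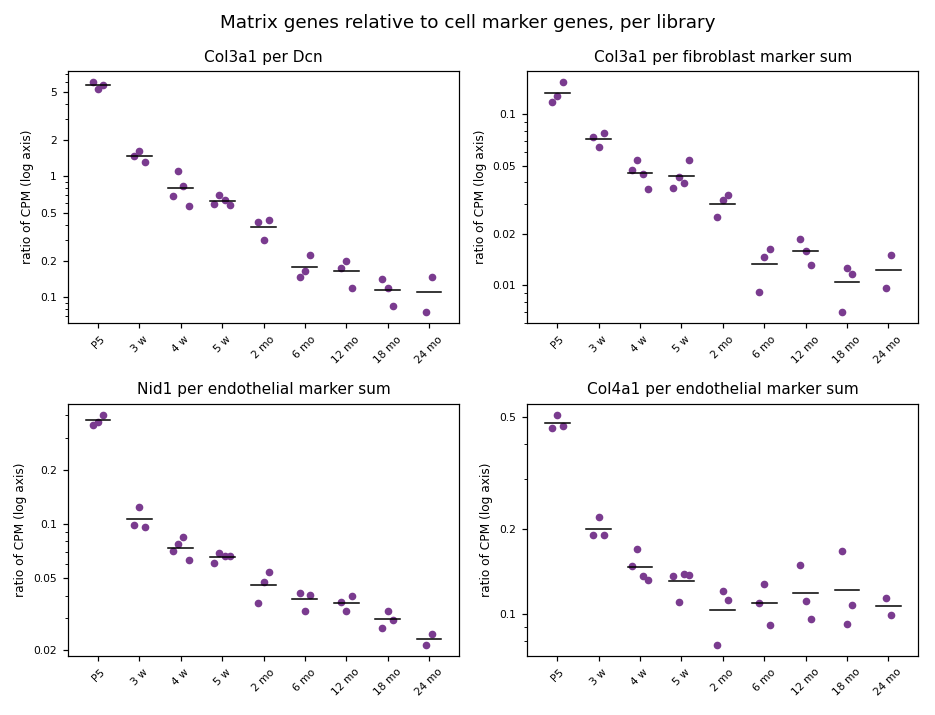
Ratio of CPM between a matrix gene and cell markers in each library at 9 ages, on log axes; points are libraries and lines are means. Col3a1 per Dcn spans 0.0758 to 0.147 at 24 months and 5.27 to 6.02 at P5, and moves with the level of Dcn as well. Col4a1 per endothelial sum overlaps its 5-week range of 0.110 to 0.139 at every adult age, and moves with that sum as well.

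From 5 weeks to 18 months, levels of some members were highest within an age in the library highest in choroid plexus markers. Col8a1, Col8a2, Nid2, Col9a3 and Col4a3 were among them, chosen after their values were seen. Being highest there was not particular to these genes. Of the 59 members, 25 were highest of their age in 5-week replicate 2 and 32 in 2-month replicate 12. The counts were 19 for 6-month replicate 32, 28 for 12-month replicate 28 and 44 for 18-month replicate 14. The number of members highest at every one of these ages is not given. Col8a1 and Col8a2 encode the short network collagen VIII of endothelia and some epithelia. At 12 months Col8a1 was at 4.82, 11.7 and 25.5 CPM in libraries whose 13 choroid plexus markers summed to 309, 2689 and 7253 CPM, and Col8a2 was at 9.84, 13.2 and 30.2 CPM in the same order. At 5 weeks the single library with a sum of 2642 CPM held 10.6 CPM of Col8a1, and the other 3, with sums of 303 to 359 CPM, held 4.37 to 4.69 CPM. Nid2 at 12 months was at 3.50, 5.96 and 12.2 CPM in the same order of libraries, Col9a3 at 17.4, 22.2 and 43.9 CPM and Col4a3 at 1.66, 1.86 and 2.83 CPM. In 18-month replicate 14, with a sum of 4918 CPM, Col9a3 was at 51.2 CPM and Col4a3 at 4.06 CPM, the highest level of each in any library. By contrast Col4a1 was at 41.7, 34.2 and 32.8 CPM in these libraries. At P5 the order did not hold: Col8a1 was at 6.02, 9.86 and 11.4 CPM with choroid sums of 76.9, 448 and 91.2 CPM. Between ages, levels did not follow the sums either. Nid2 was at 11.5, 18.6 and 14.2 CPM in the same P5 libraries, with its highest level of any library among them. Col9a3 was at 38.7, 38.8 and 40.0 CPM at 3 weeks, with choroid sums of 370, 350 and 517 CPM.

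**Figure D5:**
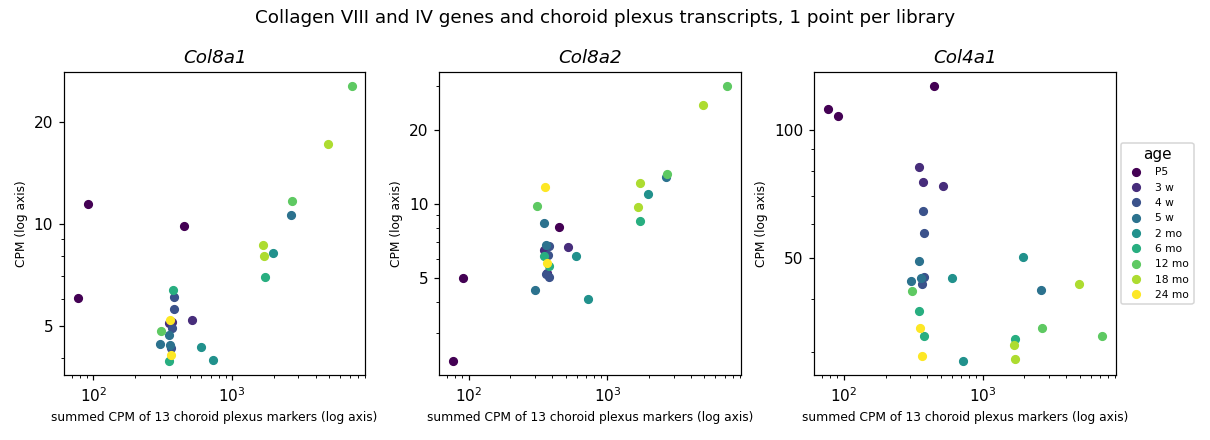
Level of Col8a1, Col8a2 and Col4a1 against the summed CPM of 13 choroid plexus markers, 1 point per library coloured by age, on log axes. The library with the highest sum, 7253 CPM, holds the most Col8a1 and Col8a2, 25.5 and 30.2 CPM, and that with 4918 CPM follows, at 17.1 and 25.1 CPM, whereas Col4a1 is highest in the P5 libraries, at 108 to 127 CPM.

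The other genes of the pathway were taken from lists of collagen-processing enzymes, receptors, proteases and further matrix proteins. Of 34 genes of collagen synthesis and crosslinking, 10 rose and 14 fell at 3 weeks against P5, where 29.8% of all genes rose and 29.3% fell. The lysyl hydroxylase gene Plod1, which modifies collagen chains in the endoplasmic reticulum, rose by a log2 fold change of 1.33 ± 0.09, the prolyl hydroxylase gene P4ha2 by 1.10 ± 0.13 and P3h4 by 0.96 ± 0.14, while the collagen IV crosslinking peroxidasin gene Pxdn had -1.38 ± 0.23. Of 15 receptor genes 4 rose and 3 fell: Itgb4, an integrin chain that binds laminin, had a log2 fold change of 2.56 ± 0.20, the collagen receptor gene Ddr1 1.54 ± 0.13, the agrin receptor gene Lrp4 0.58 ± 0.10 and the dystroglycan gene Dag1 -0.64 ± 0.06. Of 14 protease and inhibitor genes tested 4 rose and 4 fell, among them Mmp24 with -1.29 ± 0.08, Mmp16 with -1.44 ± 0.20, Timp3 with 0.65 ± 0.09 and Timp4 with 0.82 ± 0.14. Of 28 further matrix genes 3 rose and 14 fell. Sparc, whose protein binds collagen, had 2.20 ± 0.11, whereas the tenascin gene Tnc had -2.71 ± 0.27, the microfibril gene Mfap2 -1.60 ± 0.19 and Smoc1 -1.14 ± 0.12 (adjusted p of 1.3e-07 or lower for these 4, edgeR).

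At 5 weeks against 3 weeks, where 0.698% of all genes rose and 1.45% fell, 1 of 34 synthesis genes rose and 2 fell, 1 of 15 receptors rose and 2 fell, and 1 protease or inhibitor and 1 further matrix gene fell. Serpinh1, the collagen chaperone, had a log2 fold change of -0.62 ± 0.15 (adjusted p = 0.026), Ppib -0.35 ± 0.08 (adjusted p = 0.014), the elastin gene Eln -1.02 ± 0.19 (adjusted p = 0.0033) and the integrin gene Itgb1 -0.36 ± 0.07 (adjusted p = 0.0083), while Itgb4 had 1.07 ± 0.17 and Pcolce2, an enhancer of procollagen cleavage, 1.07 ± 0.18. At 6 months against 5 weeks, where 4.58% of all genes rose and 8.39% fell, 1 of 34 synthesis genes rose and 4 fell, namely Plod1 with -0.75 ± 0.08, Serpinh1 with -0.78 ± 0.16, Plod2 with -0.46 ± 0.13 and Plod3 with -0.37 ± 0.10. In the same comparison Ddr1 had -0.69 ± 0.12, Sparc -0.46 ± 0.10 and Eln -0.89 ± 0.20. The limits given for the members hold for these lists too. The Rn7s2 split and age cannot be told apart at 5 weeks against 3 weeks, or at 2 or 6 months against 5 weeks. Tissue content and age cannot be told apart at 2 or 6 months either. At 2 months against 5 weeks, where 7.13% of all genes rose and 9.43% fell, 2 of 34 synthesis genes rose and 1 fell, no receptor of 15 rose and 3 fell, no protease or inhibitor of 14 rose and 4 fell, and of the 28 further matrix genes 1 rose, Bgn (log2 fold change 0.92 ± 0.22). Over adult life, where 3.08% of all genes rose and 4.35% fell, 2 of 34 synthesis genes rose and 2 fell. Of 15 receptors none rose and 4 fell, Ddr1, Lrp4, Itgb4 and Itga6. Of 14 proteases and inhibitors Timp2 alone rose and none fell. Of the 28 further matrix genes, Bgn (-0.066 ± 0.011 log2 units per month), Vtn (-0.038 ± 0.007), Fmod (-0.10 ± 0.02) and Eln (-0.047 ± 0.011) fell. Fbln5 rose (0.048 ± 0.009). Adjusted p was 0.0062, 0.0083, 0.015, 0.024 and 0.0094, in this order. The trend starts at the 2-month libraries, where Bgn was higher than at 5 weeks. A difference in the tissue they held and age cannot be told apart.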

How the data were processed

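Per the labels' protocols, hypothalami were excised at about the middle of the light phase, kept in RNAlater, and sequenced as paired-end libraries. The submitters' processing notes name HISAT2 2.1.0, HTSeq 0.9.1 and the build GRCm38 (mm10), and the deposited values are raw counts for 24499 gene symbols. The sources used here do not state the annotation or strand setting, so overlapping genes on opposite strands cannot be told apart. The 5 summary lines of each file, 26.1 to 32.5% of its total, were removed. The partial 24-month library (replicate 5) held 2377580 counts and was left out, which leaves 28 of 29 libraries.

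From these counts, CPM used library sizes scaled by TMM, and 1 CPM is 25.5 to 40.0 counts. Genes were filtered with filterByExpr (16916 tested, 16633 in the trend) and fitted with edgeR 4.0.16 (glmQLFit, robust, R 4.3.3), 1 mean per age over all 28 libraries. The adult trend used age in months as a number over 14 libraries. Tests were two-sided, p-values were adjusted by Benjamini-Hochberg over all genes tested, and calls were made at 0.05. SE is the log2 fold change divided by the square root of F. Alternatives were DESeq2 1.42.0, other size factors, no filter, the partial library included, each library left out, a replicate block, and other sets of libraries. The code was tested on simulated data. Exon lengths came from GENCODE M21 (GRCm38).

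Members and gene lists were chosen with earlier results of these data known. A single member is counted but not reported singly here. Named were, per comparison, the 8 called members with the smallest p and at least 2 CPM at some age, 18 fixed genes, the member with the highest level per kb in each role, and up to 4 called genes of each further list; members named beyond these were chosen after their values were seen. Replicate pairs differed beyond counting noise in every age (chi-square per degree of freedom 5.42 to 58.5), so no library was counted double.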

Additional observations from a re-analysis of the deposited data

Results flagged for a closer look

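Agrn in 4-week replicate 2 was at 221 CPM, with 175, 174 and 180 CPM in the other 4-week libraries. The gap to the nearest of them was 0.876 of the whole range, over Dixon's critical value for 4 libraries. It was the single such case among 58 combinations of a member and an age with 4 libraries, where chance flags about 1 in 20, and 29 members were looked at. In the same library, 27 of the 59 members were at their highest of the 4 libraries and 1 at its lowest.

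The partial 24-month library, used in no comparison, held over 3 counts for 12 members. Among them Lamc1 had 1406 counts, Lama2 642, Col6a3 253, Col19a1 199, Lama4 198, Col5a2 165 and Col3a1 154. Members that are high in the other libraries, such as Agrn and Col4a1, were not among the 12. All members with counts in this library lie on chromosome 1 or on chromosome 10 up to base 39110188, the end of Lama4. Members elsewhere, Agrn and Col4a1 among them, held 0 counts, so a 0 there gives no level.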

How the results depend on the processing

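Of 444 values of 34 called member results under the alternatives, 317 kept their call, 126 lost it and 1 turned direction. That one is Col4a1 at 5 weeks against 4 weeks in the libraries high in Rn7s2, with a log2 fold change of 0.023 where 5 against 3 weeks had -0.78. With other size factors or DESeq2 the counts stayed within 1.5 times, except that DESeq2 called 1 member higher in the adult trend. Without the filter, 3 members rose at 3 weeks and 1 fell at 2 months. With the partial library included, 8 members differed over the 9 ages, 0 rose and 2 fell at 3 weeks, and 0 passed in the other comparisons and the trend; this fit also pools a library with counts on few genes.

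Leaving out 1 library at a time, 44 to 50 members differed over the 9 ages, 3 to 5 rose and 20 to 27 fell at 3 weeks against P5 (3 higher without P5 replicate 1 or 3 or 3-week replicate 2), and 3 to 4 fell at 5 against 3 weeks. At 2 months against 5 weeks 0 to 3 rose and 0 to 2 fell, with 1 higher without 5-week replicate 1 or 3 and 0 without 2-month replicate 12, and 1 lower without 5-week replicate 1, 2 or 4 or 2-month replicate 11 or 12 and 0 without 5-week replicate 3. At 6 months against 5 weeks 1 to 4 rose and 1 to 4 fell, with 1 higher without 5-week replicate 1 or 3 or 6-month replicate 32 or 33, and 1 lower without 6-month replicate 32. In the trend 0 to 1 rose (1 without 24-month replicate 4) and 3 to 5 fell.

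P5 replicate 3 alone leaves a single P5 library, so the number of calls in that fit is not compared. At 5 against 3 weeks, 0 members were lower with the library set as a term, 0 at 4 against 3 weeks in the low set and 0 at 5 against 4 weeks in the high set. Of all genes tested, 32, 8 and 28 were called in these fits. In the trend, 0 were lower from 6 to 24 months, 2 from 2 to 18 months and 0 without libraries over 800 CPM of Ttr (the fits by Ttr and within each Rn7s2 set were chosen after seeing the data). For these trend fits the share of all genes called is not given. The causes were not tested. Same-numbered libraries shared only a number: their deviations correlated by 0.055, 0.24 and 0.16 between 3 weeks and P5 and by -0.26, -0.37 and -0.22 between 5 and 3 weeks. With the replicate block, 7 members rose and 32 fell at 3 weeks (6 and 31 in the same libraries without it), and 0 fell at 5 weeks (7 without it). Depth limits Col10a1, at 0 to 0.475 CPM, where 1 CPM is at least 25.5 counts.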
